A study of Caenorhabditis elegans with 2 samples.

Results

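The distal intergenic peaks are the lines of the authors' "optimal" peak list, mapped on the ce11 build, that lie on an autosome with the summit outside every protein-coding gene and more than 1000 bp from every protein-coding transcript start. They numbered 281 of the 1293 autosomal peaks and of the 1563 peaks in all, which is 21.7% and 18.0%. Position alone chose them, and signal, replicate support and sequence were not used. The tagged protein was mapped by ChIP-seq, in which DNA bound by a protein is pulled down with an antibody and sequenced, in a single group of 2 biological replicates. Both were whole L4 larvae, the last larval stage, with males and hermaphrodites pooled, from strain OP240, unc-119(ed3) III; wgIs240, in which an integrated transgene supplies an eGFP-tagged LSY-2. There was no second condition, so the comparisons below are between sets of peaks and stretches of the genome.

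The C2H2 zinc finger protein LSY-2 is known for its part in the left and right asymmetry of the ASE taste neurons. Genes of C. elegans are packed closely, most promoters lie just before the gene they serve, and regulatory elements far from any start are a minority. Many worm transcripts are trans-spliced, which removes the first bases of the primary transcript, so an annotated start can lie downstream of the place where transcription begins. Whole larvae mix many cell types, and from these lists a site occupied in few cells cannot be told apart from one occupied weakly in many. Peaks are not replicates of a condition, and the number of reads behind them was not given, so no value below carries an error from depth.

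The sequences that follow are 100 bases on each side of the summit for 7 of the 10 strongest distal peaks. The F40E3.3, K08F11.1 and ins-13 peaks, also among the 10, are not printed, and the first 2 of these are the strongest of all. Added to them are the strongest distal peak near a miRNA gene and a peak over a snoRNA gene, as examples of the noncoding class. All are on the plus strand, 5′ to 3′, from the RefSeq copy of the ce11 assembly. Capitals mark 3 words of 6 letters, searched on both strands and chosen with earlier results of these data known. The first is GAGAGA, a GA repeat, which reads TCTCTC on the other strand. The second is ACGCAG, with the other strand reading CTGCGT. The third is CGTCTC, with the other strand reading GAGACG. The first and the third can share letters where they overlap. A match is a description of the letters and not a binding site.
cutl-22 and cmd-1, chrV:1151399-1151599: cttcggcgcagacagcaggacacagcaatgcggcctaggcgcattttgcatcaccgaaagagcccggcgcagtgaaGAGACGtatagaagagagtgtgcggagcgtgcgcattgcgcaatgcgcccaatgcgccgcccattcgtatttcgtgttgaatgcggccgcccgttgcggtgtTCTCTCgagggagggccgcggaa
sup-26 and R10E4.3, chrIII:4282085-4282285: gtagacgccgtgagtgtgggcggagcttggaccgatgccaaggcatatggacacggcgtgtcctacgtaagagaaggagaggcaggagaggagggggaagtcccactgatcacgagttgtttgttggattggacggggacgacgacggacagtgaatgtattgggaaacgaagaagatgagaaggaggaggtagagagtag
C56G2.9 and trmt-10C.2, chrIII:6344831-6345031: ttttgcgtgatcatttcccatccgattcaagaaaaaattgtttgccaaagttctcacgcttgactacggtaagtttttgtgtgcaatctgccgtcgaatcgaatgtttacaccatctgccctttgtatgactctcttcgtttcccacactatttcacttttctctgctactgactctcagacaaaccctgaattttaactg
Y105C5A.1 and pqn-76, chrIV:15570955-15571155: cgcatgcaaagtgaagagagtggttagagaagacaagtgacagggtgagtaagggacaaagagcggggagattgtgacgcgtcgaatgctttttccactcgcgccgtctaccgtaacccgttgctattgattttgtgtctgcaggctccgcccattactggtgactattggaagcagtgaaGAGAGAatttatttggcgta
snx-6 and Y59A8B.21, chrV:17981830-17982030: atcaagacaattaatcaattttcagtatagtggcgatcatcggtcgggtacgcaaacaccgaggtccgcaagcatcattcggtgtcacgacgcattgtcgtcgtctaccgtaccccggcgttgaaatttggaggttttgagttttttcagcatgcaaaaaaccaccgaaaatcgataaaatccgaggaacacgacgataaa
mtm-3 and xbx-5, chrIII:3801418-3801618: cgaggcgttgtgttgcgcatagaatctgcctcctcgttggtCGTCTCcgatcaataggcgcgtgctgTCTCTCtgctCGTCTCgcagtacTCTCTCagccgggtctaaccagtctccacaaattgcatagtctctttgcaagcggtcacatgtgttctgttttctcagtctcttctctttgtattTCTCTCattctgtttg
F38A6.4 and hif-1, chrV:20778349-20778549: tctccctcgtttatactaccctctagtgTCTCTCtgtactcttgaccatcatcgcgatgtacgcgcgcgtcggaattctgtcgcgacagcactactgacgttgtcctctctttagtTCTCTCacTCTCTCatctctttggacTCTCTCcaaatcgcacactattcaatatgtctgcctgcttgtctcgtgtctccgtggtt
mir-52, chrIV:14033972-14034172: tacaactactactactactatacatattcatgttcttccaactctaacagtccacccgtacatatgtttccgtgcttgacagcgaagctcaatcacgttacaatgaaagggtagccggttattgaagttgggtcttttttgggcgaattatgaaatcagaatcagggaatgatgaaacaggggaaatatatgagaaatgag
snoRNA gene ZK20.9, chrII:11635198-11635398: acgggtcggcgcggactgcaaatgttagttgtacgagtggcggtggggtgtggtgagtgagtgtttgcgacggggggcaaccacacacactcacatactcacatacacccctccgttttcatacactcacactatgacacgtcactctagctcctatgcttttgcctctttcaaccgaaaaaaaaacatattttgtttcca

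The words were frequent at distal summits, and GAGAGA was more frequent there than at other peaks. The words were chosen with earlier results of these data known, and an earlier analysis of the same data had named GAGAGA and ACGCAG. Their excess over distal sequence at large or over the flanks of the summits is therefore a description and no independent support. Within 50 bases of the summit, GAGAGA lay in 113 of the 281 distal peaks (40.2%), against 263 of the 1012 other autosomal peaks (25.99%) and 5.61% of all equal, non-overlapping windows of autosomal sequence that meets the same rule on position. ACGCAG lay in 62 distal peaks (22.1%), against 188 other autosomal peaks (18.6%) and 1.94% of the windows. CGTCTC lay in 70 distal peaks (24.9%), against 209 other autosomal peaks (20.7%) and 2.58% of the windows. The GAGAGA share was also higher than at the 676 autosomal peaks within 500 bp of a start (21.9%), and closer to that of the peaks inside genes and over 500 bp from a start (36.2%). No p was computed, since peaks near each other or of like sequence are not independent.

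The matches clustered at the summits. In windows centred 500 bp to either side of the distal summits the shares were 4.80% for GAGAGA, 1.96% for ACGCAG and 2.85% for CGTCTC, close to those of distal sequence at large. Many peaks had no match, and 117 of the 281 distal peaks (41.6%) held none of them, against 568 of the 1012 other autosomal peaks (56.1%). All 3 words occurred together in 23 distal peaks (8.19%) and 44 other autosomal peaks (4.35%). Among the printed windows the hif-1 peak held 4 GAGAGA matches and the mtm-3 peak 3 GAGAGA and 2 CGTCTC matches. The sup-26, C56G2.9, snx-6, mir-52 and ZK20.9 windows held none of the 3 words. No printed window held ACGCAG, which the unprinted F40E3.3 and K08F11.1 peaks held within 50 bases of the summit.

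**Figure D1:**
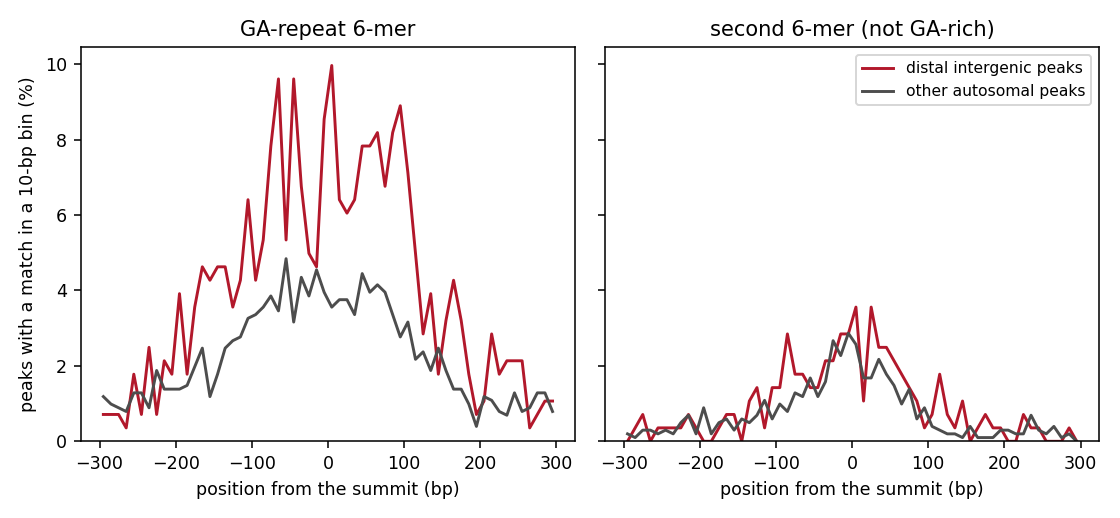
Share of peaks with a match in each 10-bp bin (vertical axis, %) by position from the summit (horizontal axis, bp) for the GA-repeat word (left) and the ACGCAG word (right, titled the second 6-mer). The red line stands for the 281 distal intergenic peaks and the grey line for the 1012 other autosomal peaks. The red line lies above the grey one within 100 bp of the summit for the GA-repeat word, while the lines run close together for the second word.

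Stronger distal peaks held the GA repeat more often than weaker ones. With all 1563 peaks ranked by signal and cut into 4 equal bands, GAGAGA lay in 21 of 45, 34 of 68, 31 of 88 and 27 of 80 distal peaks from the strongest band to the weakest, against 25.4%, 28.2%, 27.5% and 23.05% of other autosomal peaks. The median signal was 89.5 for distal peaks with GAGAGA and 80.3 for those without it. The GC content of the summit windows did not separate the sets, with a mean of 47.4% in distal peaks and 47.4% in other autosomal peaks, against 34.4% in windows of distal sequence. The part of base composition in the word counts was not tested.

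Distal peaks were weaker than other autosomal peaks. The signal value is the authors' own, and only differences within a list are read here. In the optimal list the distal peaks had a median signal of 83.3 (quartiles 69.1 and 107, range 60.4 to 552), against a median of 92.6 (quartiles 71.1 and 155, range 60.3 to 7029) for other autosomal peaks. The ratio of the medians was 0.900. In the replicates' own lists the medians were 40.9 and 44.7 in replicate 1 and 45.2 and 51.5 in replicate 2, with distal peaks lower in each. A signal over 200 was reached by 18 distal peaks (6.41%) and 158 other autosomal peaks (15.6%). Only 4 of the first 100 ranks were distal, against 82 for other autosomal peaks. The difference was seen against peaks within 500 bp of a start, whose median was 97.4. The 101 intergenic peaks over 500 and up to 1000 bp from a start were not summarised apart, so their share in it is not shown. Peaks inside genes away from starts had a median of 81.4, slightly below that of distal peaks.

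**Figure D2:**
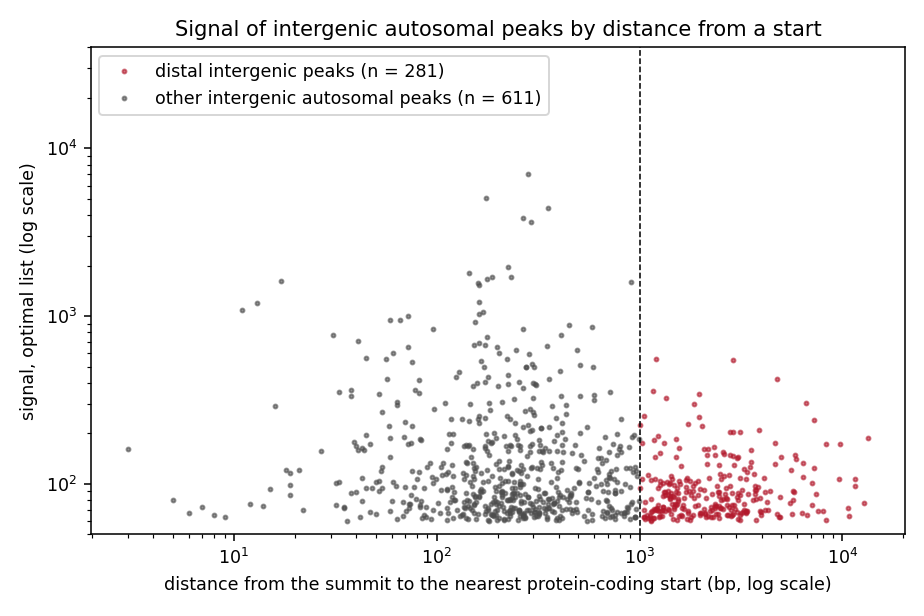
Signal in the optimal list (vertical axis, log scale) by distance from the summit to the nearest protein-coding start (horizontal axis, bp, log scale) for intergenic autosomal peaks, each point being 1 peak. The 281 distal peaks, in red, lie past the dashed line at 1000 bp and reach a signal of 552, while other intergenic peaks, in grey, reach 7029.

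The strongest distal peaks were found by the 2 replicates alike. A candidate was called strong when it was among the 1563 strongest of its replicate. All 15 of the strongest distal peaks were overlapped by strong candidates of both replicates, and 11 of them lay upstream of the nearest start. By the candidates with the nearest summits, replicate 2 had the higher signal at 14 of the 15, in lists whose scales are separate. The exception was the Y105C5A.1 peak, with 155 in replicate 1 and 146 in replicate 2.

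The 2 strongest lay in related sequence. The first lay on chromosome I (2639644 to 2640021) between F40E3.3 and the MAGE family gene mage-1, 1203 bp downstream of the F40E3.3 start and 433 bp past its end, and had a signal of 552 in the optimal list, 257 in replicate 1 and 292 in replicate 2. The second lay on chromosome IV (4727871 to 4728251) between K08F11.1 and the F-box gene fbxb-78, 78 bp from a pseudogene (WBGene00023323), with signals of 549.9, 234.5 and 305. Of the 171 overlapping 31-base words within 100 bases of each summit, these 2 peaks shared 58. A weaker distal peak between the tRNA splicing endonuclease gene tsen-34 and K08D10.11 on chromosome IV, with a signal of 71.4, shared 54 of its words with the K08F11.1 peak and 38 with the F40E3.3 peak. Another, between the mitochondrial GTPase gene miro-1 and K08F11.1, with a signal of 109, shared 35 with the F40E3.3 peak and 34 with the K08F11.1 peak. In the summit windows, 42.3% of the 31-base words of the first and 40.8% of those of the second occur once in the genome, so reads from such copies can be hard to assign, and the part of this in their signal was not tested. This comparison of words was added after the peaks' values were seen.

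A second summit lay beside several of the strongest. The K08F11.1 peak had a neighbour 227 bp away with a signal of 203, so the gap between K08F11.1 and fbxb-78 held 2 distal peaks. The peak upstream of sup-26, which encodes an RNA-binding protein, lay on chromosome III (4281949 to 4282501) with signals of 344 in the optimal list, 181 in replicate 1 and 185 in replicate 2. A second line of the list covers the same interval with its summit 207 bp away and a signal of 161, so these 2 of the 281 share 1 region. The peak of the myotubularin family gene mtm-3 (chromosome III, 3801421 to 3801604) had signals of 254, 110 and 148, and a neighbour 204 bp away had 64.0. In all, 8 distal peaks had another distal summit within 500 bp.

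The next by signal lay near genes of varied function. The peak between the cuticlin-like gene cutl-22 and the calmodulin gene cmd-1 (chromosome V, 1151323 to 1151680) lay inside the long noncoding gene linc-128, 593 bp from its start, and had signals of 421 in the optimal list, 182 in replicate 1 and 235.3 in replicate 2. The peak near ins-13, which encodes an insulin-like peptide, covered sls-2.2, a gene for the SL2 spliced leader RNA (chromosome II, 5543497 to 5543856), with signals of 355, 108 and 197. A stronger candidate of replicate 1, ranked 81 against 172 for the one with the nearest summit, also overlapped this peak, so the gap between 108 and 197 depends on which candidate is taken. Its window shared 37 words with a peak of signal 60.3 on the same chromosome with its summit at 5544311 and 34 with one of signal 352 at 5844824. The C56G2.9 and trmt-10C.2 peak (chromosome III, 6344816 to 6345040) had signals of 324, 149 and 171.

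Distal peaks lay upstream of both hif-1 and egl-9. The hypoxia-inducible factor gene hif-1 had a peak 1958 bp upstream of its start on chromosome V (20778254 to 20778643), with signals of 249 in the optimal list, 97.4 in replicate 1 and 154 in replicate 2. A second distal peak in the same gap had 87.7. The gene egl-9, which encodes the prolyl hydroxylase that marks HIF-1 for removal, had one 1735 bp upstream on chromosome V (10466709 to 10466862), with signals of 228, 103 and 123. That peak lay over the noncoding genes F22E12.9 and F22E12.10. The rule that names genes took both by signal, and no list of pathway genes was tested. The rest of the 15 had optimal signals from 303 to 210.1. They lay beside Y105C5A.1 and the glutamine-rich protein gene pqn-76 (303), the sorting nexin gene snx-6 (299.9), F54F12.1 and Y39E4B.6 (241), F16G10.6 (224), the O-GlcNAc transferase gene ogt-1 (219.7) and atfs-1 (210.1), which encodes a transcription factor of the mitochondrial stress response.

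**Figure D3:**
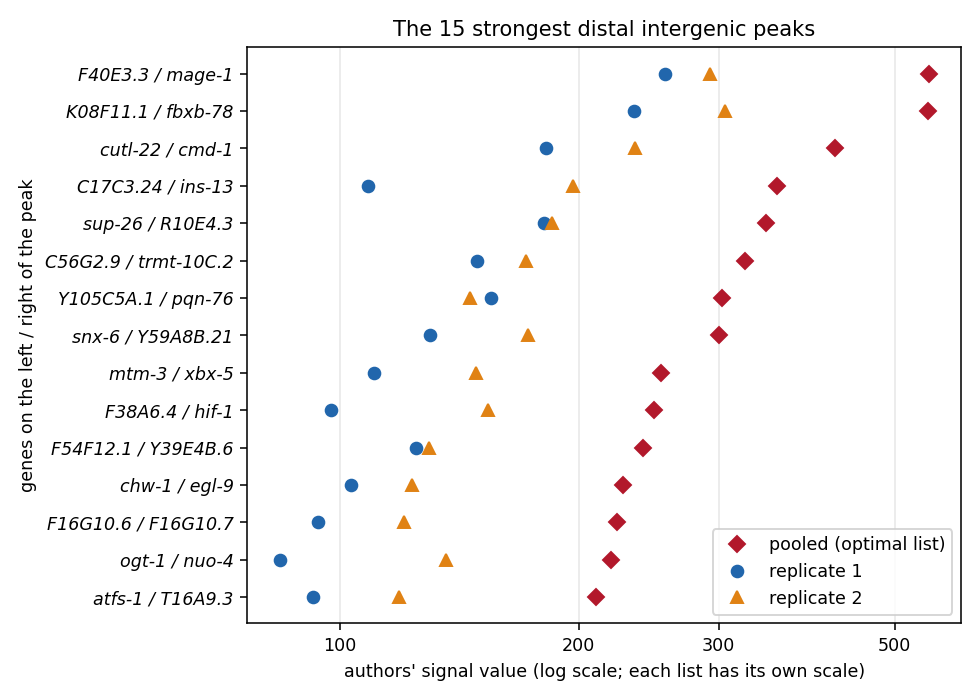
Signal (horizontal axis, log scale) of the 15 strongest distal intergenic peaks in the optimal list (diamonds), replicate 1 (circles) and replicate 2 (triangles), named by the genes on either side. The lists have separate scales. Replicate 2 is higher than replicate 1 at every peak shown but the Y105C5A.1 peak. At the sls-2.2 peak between C17C3.24 and ins-13 the point for replicate 1 is the candidate with the nearest summit, and a stronger one also overlaps.

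Support by both replicates was near that of all peaks. Strong candidates of both replicates overlapped 188 of the 281 distal peaks (66.9%), against 714 of the 1012 other autosomal peaks (70.6%) and 69.9% of all 1563. All 281 had some candidate in each replicate. Strong candidates of only 1 replicate overlapped 88 of them, and 5 had none in either. The optimal list rests on these same libraries, so the overlap is not independent of it. Support followed signal, with 100% of the 45 distal peaks in the strongest of the 4 bands, 95.6% of 68, 71.6% of 88 and 18.8% of 80 in the weakest. Other autosomal peaks had 100%, 96.7%, 64.6% and 15.6% in the same bands, so at like rank the 2 sets had like support.

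Summits recurred closely as well. The nearest candidate summit was a median of 12 bp away in replicate 1 and 9 bp away in replicate 2, against 12 bp and 7 bp for other autosomal peaks. Both replicates had a summit within 100 bp at 260 distal peaks (92.5%) and 954 other autosomal peaks (94.3%). Across the 281 distal peaks the signals of the replicates were related with Spearman's rho of 0.507 and Pearson's r of 0.673 (r on log2 values), against 0.684 and 0.857 across the 1009 other autosomal peaks with a candidate in both. Among these, the 233 peaks inside genes and over 500 bp from a start had lower values than distal peaks, 0.390 and 0.490. The points of each set share their 2 libraries, and the distal signals span a narrower range.

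**Figure D4:**
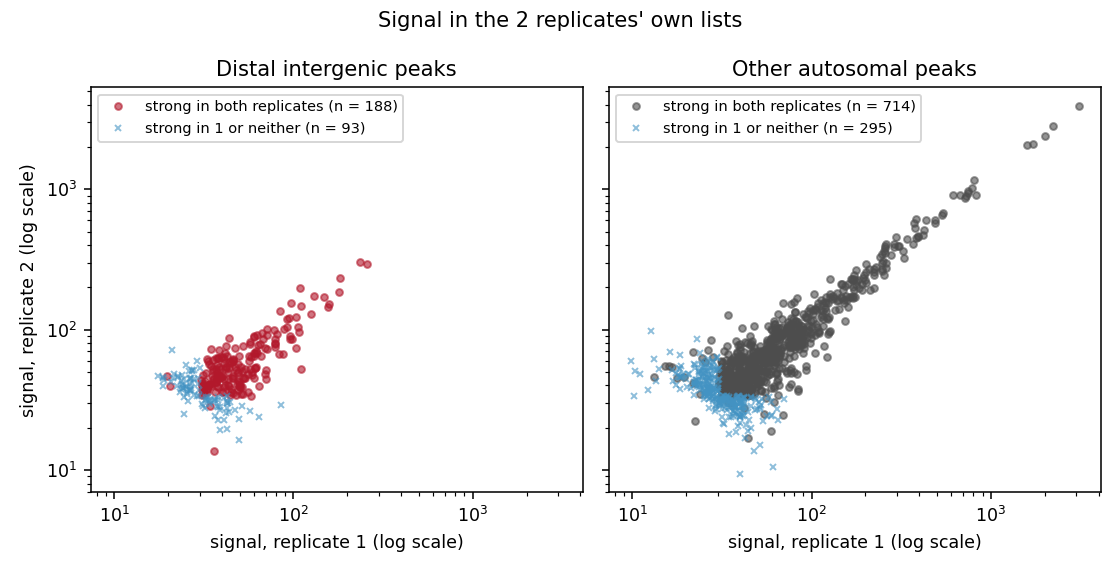
Signal in replicate 2 (vertical axis, log scale) against signal in replicate 1 (horizontal axis, log scale) for the distal intergenic peaks (left) and the other autosomal peaks (right), each point being 1 peak. The 188 distal and 714 other peaks that are strong in both replicates run along the diagonal, and the distal ones stop at 257 in replicate 1 and 305 in replicate 2.

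The weakest and least even distal peaks show the lower limit of the set. The 3 weakest had signals of 60.5 between ldp-1 and F22F7.7, 60.5 between npl-10 and F37A8.5, and 60.4 between the ubiquitin-conjugating enzyme gene ubc-25 and the proteasome subunit gene pas-5. None of these 3 was supported by both replicates. The 5 with no strong candidate had signals from 60.4 to 64.2 and lay beside wwp-1, epac-1, apd-3, F21C10.10 and pas-5. The ratio of ranks between replicates was widest at the peak 2450 bp upstream of tax-6, which encodes the calcineurin A subunit, with rank 635 in replicate 1 and 7589 in replicate 2. The others were the T07E3.4 peak, with ranks 1135 and 11234, and the C26C6.9 peak, with ranks 249 and 2073. The tax-6 and C26C6.9 peaks were higher in replicate 1. At T07E3.4 another overlapping candidate of replicate 2 had rank 782, so the peak counts as supported, and which replicate ranks it higher depends on the candidate taken.

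Per length of sequence, distal intergenic peaks were about as dense as peaks elsewhere on the autosomes. Sequence that meets the rule came to 18.9 Mb, 22.8% of the autosomes, and held 14.9 peaks per Mb, against 15.9 per Mb in the rest, a ratio of 0.938. With a limit of 500 bp in place of 1000 bp the ratio was 1.07, so its direction depends on the limit. The rest is uneven. Sequence within 500 bp of starts held 34.1 peaks per Mb, intergenic sequence between 500 and 1000 bp from a start 23.3 per Mb, and gene bodies over 500 bp from a start 5.94 per Mb. Distal intergenic sequence thus held fewer peaks than sequence nearer to starts and more than gene bodies.

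Density also fell within the distal zone as distance grew. The summits lay a median of 2232 bp from the nearest start (quartiles 1460 and 3258 bp, range 1002 to 13391 bp), in gaps between genes with a median length of 5.82 kb. Over 2000 bp from a start lay 54.8% of distal peaks and 66.95% of qualifying bases, and over 5000 bp 10.7% of peaks and 20.5% of bases. Of the 281 summits, 213 (75.8%) lay upstream of the nearest start and 68 downstream. Gaps between convergent genes, which hold only 3′ ends, had 27 peaks and 8.66 per Mb. Gaps between divergent genes had 90 peaks and 16.1 per Mb, and gaps between genes of the same direction had 163 and 16.1 per Mb. The median signals in these gaps were 79.8, 83.6 and 84.9 in that order.

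Peaks lay on both sides of the limit of 1000 bp with signals in a like range. Just inside were the F16G10.6 peak at 1002 bp with a signal of 224, the peak of the enoyl-CoA hydratase gene ech-2 at 1007 bp with 94.2 and that of the chromodomain gene cec-1 at 1028 bp with 106. Just outside were F58D5.5 at 999 bp with 186, dhs-8 at 993 bp with 78.8 and the G protein beta subunit gene gpb-1 at 972 bp with 112.

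The 5 peaks farthest from a protein-coding start lay in long gaps between protein-coding genes. The farthest, with a signal of 188, 88.2 in replicate 1 and 101 in replicate 2, lay 13.4 kb from irld-18 in a gap of 35.6 kb that ends at the DM domain gene dmd-6. The next were 12.7 kb from C31H1.2 and 20.7 kb from nhr-46 (76.8), 11.6 kb from the start of K01F9.2 and 12.6 kb from plg-1, the copulatory plug gene (107), 11.5 kb from the start of the synaptotagmin gene snt-1 (97.6) and 10.8 kb from ZC190.4 (64.4). Of these 5, only the C31H1.2 peak lacked strong candidates of both replicates. Apart from piRNA genes and pseudogenes, the nearest noncoding gene lay 206 bp from the K01F9.2 peak (mir-80) and 798 bp from the snt-1 peak (F31E8.8). At the others of the 5 it lay at least 5228 bp away.

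Chromosome III had the highest density and chromosome V the lowest. The counts were 46 on I, 53 on II, 62 on III, 65 on IV and 55 on V, or 16.7, 15.2, 22.6, 13.3 and 10.97 per Mb of qualifying sequence. Other autosomal peaks per Mb of other sequence followed a like order, with 19.2, 17.5, 21.6, 13.8 and 9.74. The middle 50% of each chromosome held 179 distal peaks (63.7%) and 647 other autosomal peaks (63.9%), against 46.5% of qualifying bases. Support by both replicates ranged over the chromosomes between 58.7% on I and 74.2% on III.

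Some genes nearest to a distal peak also had a peak at a start. The gene with the nearest start had another peak within 500 bp of a start for 37 of the 281 distal peaks (13.2%). Of the 17242 autosomal protein-coding genes, 4.91% had such a peak. The first is a share of peaks, in which a gene can count more than once. The second is a share of genes, so the 2 are not a like comparison. At least 1 of the genes on either side had a peak at a start for 58 distal peaks (20.6%). That share counts up to 2 genes a peak and so is also not set against the 4.91%. The flanking genes numbered 484, and 246 gaps of the 6778 with qualifying sequence held a distal peak. A gap held 1 distal peak in 218 cases, 2 in 21 and 3 in 7.

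The 7 gaps with 3 distal peaks had highest signals between 70.8 and 241. The 14.2 kb gap between Y49A3A.4 and unc-39, which encodes a homeodomain transcription factor, held summits with signals of 109.7, 89.8 and 77.7 over 4.16 kb. All 3 were supported by both replicates, and the middle one by signal lay 179 bp upstream of mir-48, a let-7 family miRNA that times larval development. The gap between snt-1 and egl-27, an MTA family gene, held 97.6, 90.3 and 86.8, all supported. The F54F12.1 and Y39E4B.6 gap held 241, 149 and 109, all supported, and the gap between the lipin gene lpin-1 and the mitochondrial gene letm-1 held 107, 90.6 and 84.9, all supported. The others lay between the eggshell gene perm-1 and the Patched family gene ptc-1 (80.4, 71.0 and 70.2), between irld-18 and dmd-6 (188, 76.7 and 68.6) and between F45D3.1 and F45D3.2 (70.8, 67.3 and 66.7), with 2, 1 and 2 supported. K08F11.1 and the gene gldi-3 also had 3 distal peaks each, counted over both of their sides.

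Noncoding genes lay near distal summits more often than near distal sequence at large. Within 200 bp of a noncoding gene other than piRNA genes and pseudogenes lay 62 distal summits (22.1%), against 197 of the other autosomal summits (19.5%) and 5.63% of qualifying bases. Summits lay inside such a gene in 26 cases (9.25%), against 103 of the other autosomal summits (10.2%) and 2.39% of qualifying bases. The distal rule excluded starts of protein-coding genes only, and 92 distal peaks (32.7%) had a noncoding transcript start within 1000 bp. The share was 28.0% for other autosomal peaks, 35.3% for peaks inside genes away from starts and 14.1% for qualifying bases. Distal peaks near noncoding genes were weaker, with a median signal of 77.7, than the others, with 84.3.

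**Figure D5:**
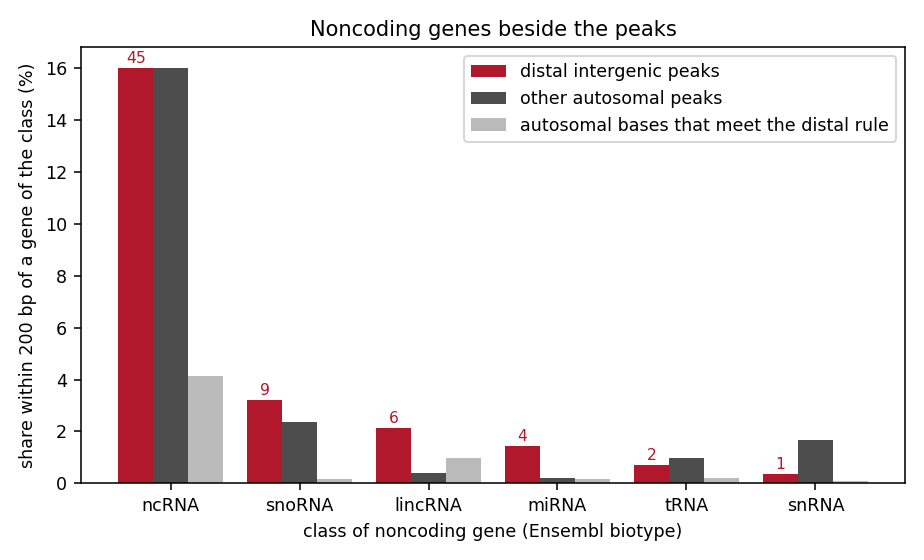
Share within 200 bp of a noncoding gene of each class (vertical axis, %) for the 281 distal intergenic peaks (red, with the number of peaks above), the 1012 other autosomal peaks (dark grey) and the autosomal bases that meet the distal rule (light grey). The ncRNA class holds 45 distal peaks, and for every class shown the red bar is above the light grey bar. For the snRNA and tRNA classes the dark grey bar is above the red bar.

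Most of these genes carry the broad biotype ncRNA, short annotated transcripts for which no function is given here. They met 45 distal peaks (16.01%), against 162 other autosomal peaks (16.01%) and 4.13% of qualifying bases. The strongest after the sls-2.2 and egl-9 peaks was at W08E3.5 (182). Long noncoding genes of the lincRNA class met 6 distal peaks (2.14%), against 4 other autosomal peaks (0.395%) and 0.989% of qualifying bases. They were led by linc-128 (421), linc-91 near the chromatin remodeller gene chd-7 (204) and linc-129 near the calcium pump gene sca-1 (105). Antisense RNA genes met 0 distal peaks, against 5 other autosomal peaks (0.494%) and 0.0710% of qualifying bases. For rRNA genes the counts were 0 and 0, against 0.0897% of qualifying bases. With so little sequence near them, these counts of 0 are not informative.

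Genes for short RNAs met 16 distal peaks, and most summits at snoRNA genes lay just upstream. The 9 distal peaks within 200 bp of a snoRNA gene, whose products guide changes to ribosomal RNA, were 3.20% of the set, against 2.37% of other autosomal peaks and 0.173% of qualifying bases. Of the 9 summits 7 lay upstream of the snoRNA gene, by 25 to 157 bp, 1 inside and 1 downstream. The strongest were at T28B8.11, with signals of 103 in the optimal list, 44.9 in replicate 1 and 59.2 in replicate 2, at ZK20.9, with 95.4, 60.2 and 45.2, and at T26A8.6, with 85.3, 37.4 and 56.2. Of the 9, 4 were supported by both replicates, and the weakest distal peak of all, beside pas-5, lay 53 bp upstream of the snoRNA gene F25H2.15.

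The miRNA genes met 4 distal peaks (1.42%), against 2 other autosomal peaks (0.198%) and 0.172% of qualifying bases. The strongest covered mir-52, with signals of 171 in the optimal list, 104 in replicate 1 and 74.0 in replicate 2. Next came mir-53 (102) and mir-48 (89.8), with the summit upstream of the gene by 129 and 179 bp, and mir-8209 (68.6). The first 2 belong to the mir-51 family of worm miRNAs. The first 3 were supported by both replicates. The tRNA genes met 2 distal peaks (0.712%), against 10 other autosomal peaks (0.988%) and 0.189% of qualifying bases. These had signals of 65.1 at WBGene00014402 between mstr-2 and ifet-1 and 63.6 at WBGene00022903 near unc-44, neither supported by both. The snRNA class met 1 (0.356%), at sls-2.2, against 17 other autosomal peaks (1.68%) and 0.0894% of qualifying bases.

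The GA repeat was less frequent at peaks by short RNA genes. It lay in 3 of these 16 distal peaks, against 110 of the other 265 (41.5%), and CGTCTC lay in 0 of 16, against 70 of 265 (26.4%). With 16 peaks these shares are imprecise. The piRNA genes, which fill long stretches of chromosome IV, met 3 distal peaks (1.07%), against 9 other autosomal peaks (0.889%) and 7.97% of qualifying bases. Pseudogenes met 6 (2.14%), against 14.8% of qualifying bases and 0.395% of other autosomal peaks. The last share differs by position, with 1.70% of peaks inside genes and over 500 bp from a start and 0% of those within 500 bp of a start. Repeats as masked in the assembly made up a mean of 16.6% of the bases in distal summit windows and 19.6% in those of other autosomal peaks, against 41.3% in windows of distal sequence.

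Protein-coding families differed in how many distal peaks had them as the nearest gene. Chemoreceptor genes were nearest to 1 distal peak (0.356%), at srw-60 with a signal of 69.3, although they are the nearest genes for 6.78% of qualifying bases. Peaks at their starts were few as well, at 3 of the 1276 autosomal chemoreceptor genes, against 4.91% of all autosomal protein-coding genes. F-box, MATH and BATH genes were nearest to 1 (bath-44, 94.2), against 2.10% of bases. Nuclear hormone receptors, ligand-regulated transcription factors that form a large family in worms, were nearest to 7 (2.49%), against 1.99% of bases. The strongest of these were nhr-88 (155), nhr-21 (89.7), nhr-10 (88.9) and nhr-102 (81.5). Other developmental transcription factors were nearest to 4 (1.42%), against 0.979% of bases. These were hlh-10 (124), egl-27 with 2 peaks (90.3 and 86.8) and blmp-1 (61.8).

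Homeobox genes were nearest to 2, the Hox gene ceh-13 (71.9) and the pharyngeal gene ceh-22 (68.2), which is 0.712% against 0.880% of bases. Neuropeptide genes were nearest to 2, ins-13 (355) and nlp-40 (104), which is 0.712% against 0.987% of bases. Cuticle collagens were nearest to 1, col-83 (93.5), which is 0.356% against 0.696% of bases. The 7 autosomal heterochronic genes were nearest to 0, against 0.0996% of bases, a share too small for the 0 to be informative. Ribosomal protein genes, which had a peak at the start in 57 of 79 autosomal cases, were nearest to only 2 distal peaks, at rpl-31 (70.2) and rps-25 (66.04). That is 0.712%, against 0.222% of qualifying bases, and neither was supported by both replicates. In percentage points, the chemoreceptor share was the farthest below its share of sequence among these lists. The other counts are small, and no list was tested.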

How the data were processed

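Peak lists from immunoprecipitated DNA of 2 biological replicates were used as deposited on the ce11 build, whose assembly is WBcel235. The signal in each deposited list was computed by the authors and has a scale of its own per list. The deposited -log10 q value was 3.53 for every optimal peak, and the p column was not filled. The sources used here name neither aligner nor peak caller nor the threshold of the irreproducible discovery rate (not given in the sources used here). All peak files were tied to a sample or to both replicates, with 0 columns left unmapped.

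Ranks, overlaps of at least 1 bp, distances to Ensembl genes and word counts in RefSeq sequence were computed with Python 3.11.15, numpy 2.4.6, pandas 2.3.3, scipy 1.17.1 and matplotlib 3.10.9, and the steps were tested on simulated data. The replicates came from separate biological samples, per the labels, but the pooled list joins them, so no p-value was computed. Per peak, a replicate's signal and rank are those of the overlapping candidate with the nearest summit, and support takes the strongest overlapping candidate. Masking is the lower case of the RefSeq assembly. Families were taken from symbol lists, and the nearest gene is the one with the nearest edge. Members, lists and words were chosen with earlier results of these data known.

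The text names the 15 strongest distal peaks, the 5 farthest, the 3 weakest, the 3 strongest by each noncoding class, those beside the limit, those with no strong candidate or the widest rank ratio, runs or genes with 3 distal peaks, and up to 5 genes a list. Printed windows share no 31-base word with a chromosome whose sequence is not shown. Alternatives changed the distance limit, annotation, position, list, overlap, windows and replicates.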

Additional observations from a re-analysis of the deposited data

How the results depend on the processing

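Of the alternatives tried, the count of 281 distal peaks moved by over 1.5 times only with a limit of 2000 bp (154) and with the stronger 50% of the list (113). The other counts lay between 256 and 382, and 280 of the 281 were also distal by the RefSeq annotation, which gave 293. The density ratio of 0.938 was 1.07 with a limit of 500 bp, which puts it past 1, 0.749 with 2000 bp and 0.722 with the stronger 50%. Support by both replicates was 100% with any candidate, 60.1% with strong summits within 100 bp and 97.3% among the stronger 50%, where it was 98.2% for all peaks. The ratio of median signals was 0.943 with 500 bp, 0.930 with 2000 bp, 0.855 against peaks at starts, and 0.873 to 0.908 with either replicate left out. The number near noncoding genes was 21 of the 113 distal peaks among the stronger 50%, against 62 of 281 in the full list, so the lower count goes with a shorter list. The GAGAGA share was 21.7% within 25 bases, 65.1% within 100 bases and 48.7% among the stronger 50%, and the ACGCAG share was 12.1%, 33.1% and 29.2%. A wider window holds a word more often in any sequence. The shares of other peaks are not given for these settings, so the values do not show whether the contrast with other peaks holds there.

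Without peaks that share a 31-base word with another peak, an alternative chosen after seeing the data, 256 distal peaks remained, and GAGAGA lay in 41.4% of them. With either replicate left out, the strongest candidates of the other gave 273 to 290 distal regions. No paired analysis was possible because there is 1 group. Depth is unknown, and 2 replicates limit every share of support.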

Other observations

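Of the 281 distal peaks, 25 (8.90%) shared a 31-base word within 100 bases of the summit with another optimal peak, against 54 of the 1012 other autosomal peaks (5.34%). Of the 25, 18 shared one with another distal peak. Besides the F40E3.3, K08F11.1, miro-1 and tsen-34 peaks, the peak between the bZIP gene zip-11 and F42A6.5 on chromosome IV (signal 148) shared 72 of 171 words with a peak of signal 87.5 nearest to Y54E10BR.2. The peak near unc-44 over a tRNA gene shared 57 with a peak of signal 71.3 nearest to clec-126. Copies of tRNA genes are nearly identical. The K07D4.2 and gadr-4 peak (signal 87.5) held no 31-base word that occurs once in the genome within 50 bases of its summit.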
